A study of Mus musculus with 24 samples.

Results

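The day 7 LSD1 peak list of 3T3-L1 cells labelled LSD1 overexpression was compared with the day 7 LSD1 peak list of control cells. Every peak of both lists was used. The labelled list held 27221 peaks and the control list 8303, together 35524 of the 56252 peaks in the 6 lists of the series. Each list came from 1 chromatin immunoprecipitation (ChIP-seq) sample, so no difference between the lists has a replicate check, and none was tested. The lists were compared by overlap, peak score, width, genomic class, base composition, and the genes that carried a peak at the promoter or in the body. RNA-seq of the same 2 kinds of cells at day 7, with 3 libraries each, gave the level of those genes.

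3T3-L1 is a mouse embryonic fibroblast line that turns into fat-storing cells after hormonal induction. Control cells carry the genotype label Control. The other cells carry the genotype label LSD1 overexpression, and their sample titles read 3T3-L1_LSD1. The name of their day 7 peak list holds AOF2_OE, after an older name of the LSD1 gene. Both kinds of cells were used at passages 13 to 18, grown in 10% fetal serum and induced with insulin at 10 µg/ml, dexamethasone at 1 µM, rosiglitazone at 10 µM and IBMX at 500 µM. The medium was changed at day 3 and cells were taken at day 7. One LSD1 antibody, number 20752, served for all LSD1 samples. How the cells labelled LSD1 overexpression were made, which promoter was used, and whether they are 1 clone are not given in the sources used here, so that the label and the line cannot be told apart.

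LSD1, encoded by Kdm1a, is a flavin-dependent enzyme that removes methyl groups from histone H3 lysine 4 and, in some settings, lysine 9. It works within CoREST and other corepressor complexes, with histone deacetylases, and also sits at promoters of active genes. In fat cells it has been linked to differentiation and to mitochondrial gene programs. Nrf1, the factor of the other ChIP-seq samples, activates nuclear genes for mitochondrial proteins.

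The RNA libraries did not follow the label at Kdm1a itself. Kdm1a stood at 66.1, 67.6 and 74.5 CPM (counts scaled to library size) in the 3 control libraries and at 54.3, 55.4 and 54.4 CPM in the 3 libraries labelled LSD1 overexpression. The groups did not overlap, and the labelled libraries were lower by log2 -0.34 ± 0.10 (SE; adjusted p = 0.00751, edgeR's quasi-likelihood test with Benjamini-Hochberg adjustment, as for every adjusted p below). The Kdm1a promoter carried a peak of score 375 in the labelled list and none in the control list. The 6 day 7 RNA libraries held 27512273 to 31008490 counts, and libraries of 1 day 7 group correlated at 0.992 or more. Across all genes 13356 were tested, of which 63.6% passed, 30.2% higher and 33.4% lower, in the labelled libraries at adjusted p under 0.05. The 26 genes of an adipocyte program summed to 15503 to 17519 CPM in the control libraries and 47824 to 52101 CPM in the labelled ones. The 25 preadipocyte and fibroblast genes summed to 28613 to 30018 CPM in the controls and 8514 to 9717 CPM in the labelled libraries, and 25 cell cycle genes to 1177 to 1247 and 347 to 358 CPM. Marker lists of other cell types summed to less. The 8 bone or cartilage markers summed to 119 to 155 CPM in the controls, with Sox9 leading at 118 CPM, and to 46.1 to 49.5 CPM in the labelled libraries, with Sox9 at 25.1 CPM. The 8 muscle markers went the other way, from 12.7 to 15.6 CPM in the controls to 33.6 to 44.1 CPM in the labelled libraries, led by Des at 13.4 and 37.1 CPM, and 5 of the 8 were at 0 in all 6 libraries. The 7 endothelial markers summed to at most 2.36 CPM in any day 7 library, the 7 macrophage markers in the count table to 13.7 to 16.1 CPM in the controls and 6.61 to 7.09 CPM in the labelled libraries, with Cd14 leading, and the 20 neuronal genes to 17.3 to 23.8 CPM over all 6. Of the macrophage markers 1 was at 0 in every control library and 4 in every labelled one. The part of such cells in the results was not tested. In bulk samples fewer cells of a type and less RNA per cell cannot be told apart.

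Sequences of 6 places stand for the kinds of peaks found, taken from the mouse genome GRCm38.p6, the assembly of the mm10 coordinates in the lists. Promoters are the 250 bases before the RefSeq start, on the strand of the gene. Windows are 300 bases around a peak's midpoint, on the forward strand. None overlapped an exon. Capitals mark a motif on either strand, and a match is a description of the letters only. Acadm, the medium-chain acyl-CoA dehydrogenase of fat oxidation, stands for the promoters listed in both lists, and its promoter at chr3:153944644-153944893 (minus strand) also carried an Nrf1 peak at day 7. Capitals mark the Nrf1 core GCATGCGC.
Acadm promoter: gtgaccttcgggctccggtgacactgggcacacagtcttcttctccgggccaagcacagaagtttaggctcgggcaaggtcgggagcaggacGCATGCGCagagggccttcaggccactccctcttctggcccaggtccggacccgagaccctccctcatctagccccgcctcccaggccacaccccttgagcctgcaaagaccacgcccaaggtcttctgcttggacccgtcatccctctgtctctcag
Cidec, a lipid droplet protein, stands for the adipocyte promoters listed with the highest scores in the labelled list only (chr6:113434765-113435014, minus strand). Capitals mark an AP-1 motif, TGANTCA.
Cidec promoter: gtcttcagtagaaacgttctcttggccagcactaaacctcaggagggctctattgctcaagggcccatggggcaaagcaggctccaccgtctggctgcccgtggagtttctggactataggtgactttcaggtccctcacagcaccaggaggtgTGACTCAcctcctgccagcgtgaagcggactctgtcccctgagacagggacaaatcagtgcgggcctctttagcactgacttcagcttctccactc
Gtf2i, a general transcription factor, had the highest-scoring promoter peak of the control list that the labelled list lacked (chr5:134314761-134315010, minus strand). Its promoter also carried an Nrf1 peak at day 7. Capitals mark 2 SP1 motifs, GGGCGG.
Gtf2i promoter: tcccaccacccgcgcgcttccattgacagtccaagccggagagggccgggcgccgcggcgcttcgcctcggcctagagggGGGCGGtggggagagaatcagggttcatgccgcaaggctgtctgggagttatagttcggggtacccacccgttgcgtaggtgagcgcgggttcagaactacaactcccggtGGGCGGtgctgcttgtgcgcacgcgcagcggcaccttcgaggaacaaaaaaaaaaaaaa
The intron of 2700054A10Rik at chr17:13590504-13590803 lay under the highest-scoring labelled-only peak outside promoters and outside densely listed stretches. It is a tandem repeat, and capitals mark 10 copies of AGATAA.
2700054A10Rik intron: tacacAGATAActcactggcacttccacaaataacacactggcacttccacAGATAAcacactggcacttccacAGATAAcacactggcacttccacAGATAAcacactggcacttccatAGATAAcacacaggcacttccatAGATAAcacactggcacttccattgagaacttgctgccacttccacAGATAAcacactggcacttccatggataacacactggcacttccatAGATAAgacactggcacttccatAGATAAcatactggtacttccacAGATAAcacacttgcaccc
The place nearest to 4930517M08Rik at chr17:4626269-4626568 lay under the highest-scoring control peak outside promoters, which both lists held. Capitals mark 45 copies of GGAATG on either strand, which make up 78.7% of the window.
4930517M08Rik window: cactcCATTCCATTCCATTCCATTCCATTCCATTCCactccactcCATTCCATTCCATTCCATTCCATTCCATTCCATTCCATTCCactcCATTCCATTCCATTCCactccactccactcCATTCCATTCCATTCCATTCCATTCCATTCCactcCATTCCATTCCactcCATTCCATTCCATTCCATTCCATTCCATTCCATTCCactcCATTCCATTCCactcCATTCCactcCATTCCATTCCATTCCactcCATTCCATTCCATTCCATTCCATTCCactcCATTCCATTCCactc
The intron of Pparg, the central adipogenic nuclear receptor, at chr6:115448582-115448881 lay under 1 of the many low-scoring labelled-only intron peaks, with a score of 52.8. It was picked among the Pparg intron peaks because its window holds a C/EBP motif. Those with scores of 328 and 70.1 were passed over. The match therefore says nothing about such peaks, and the motif stood in 2.86% of labelled-only intron windows. Capitals mark the C/EBP motif, TTGCACAA.
Pparg intron: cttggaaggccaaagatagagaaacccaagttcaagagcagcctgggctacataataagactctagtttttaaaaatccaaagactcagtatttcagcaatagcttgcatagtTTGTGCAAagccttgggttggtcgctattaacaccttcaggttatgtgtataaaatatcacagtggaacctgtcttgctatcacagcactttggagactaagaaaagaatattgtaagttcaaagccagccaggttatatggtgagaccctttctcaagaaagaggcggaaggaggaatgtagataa

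Nearly all control peaks lay under a labelled peak. With an overlap of at least 1 base counted as shared, 8082 of 8303 control peaks (97.3%, 95% exact Clopper-Pearson interval 97.0 to 97.7%) were shared, but only 8439 of 27221 labelled peaks (31.0%, 30.5 to 31.6%). These intervals cover counting error only. The labelled list thus held 18782 peaks that the control list lacked, and the control list 221 that the labelled list lacked. A control peak usually met 1 labelled peak (7571 peaks), and 511 control peaks met 2 or more. The labelled list covered 25.95 Mb, or 0.952% of the chromosomes, and the control list 10.65 Mb, or 0.391%. The ratio of labelled to control peaks was 2.21 on chromosome 16 and 4.33 on chromosome 8, the lowest and highest among the autosomes. The number of reads behind each list is not known, and its part in the number of peaks was not tested.

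Scores are the authors' own, on a scale the sources do not state, so they rank peaks within a list. Where scores of both lists are given for 1 gene, the control score comes first and no difference is drawn from them. Both lists began at a score of 50, and the median was 127 in the control list and 150 in the labelled list. In the control list 5 peaks reached 3100, a value at which many peaks tied, and in the labelled list 319 did. The shared labelled peaks were the upper part of the list, with a median of 697 against 96.4 for the labelled-only peaks. The 221 control-only peaks lay near the floor, with a median of 60.3. Over 7287 pairs of 1 control and 1 labelled peak, Spearman's rho of the scores was 0.62, given as a description over places that share a genome and an antibody.

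The share of shared peaks fell steeply with rank in the labelled list and much less in the control list. From the top decile by score to the bottom one it went from 88.2 to 2.46% of labelled peaks and from 99.4 to 87.1% of control peaks. Promoter peaks followed the same course in the labelled list, from 86.6 to 12.8%, while the control list went from 93.1 to 68.1%. The top 8303 labelled peaks, as many as the control list holds, were 84.9% at promoters, and 77.5% of them were shared. They overlapped 78.8% of control peaks. At equal length the 2 lists therefore had near promoter shares, 84.9 and 88.0%.

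**Figure D1:**
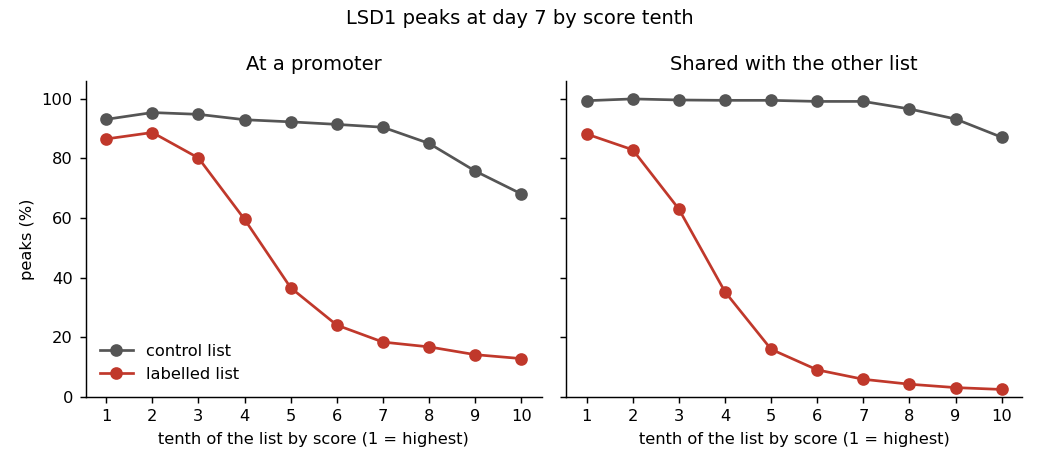
Share of peaks at a promoter (left) and shared with the other day 7 list (right), in % of the peaks of each decile of a list, against the decile by score (1 is highest); grey is the control list and red the labelled list. The labelled curve drops from 88.2 to 2.46% shared, and the control curve stays at 87.1% or more.

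Peaks listed only in the labelled cells were narrow. Their median width was 565 bp, against 1204 bp for shared labelled peaks and 1141 bp for control peaks. Over the 1-to-1 pairs the labelled peak was the wider one in 55.3% of cases, with medians of 1235 and 1134 bp. Width went with score in both lists (Spearman's rho 0.89 labelled, 0.76 control, across peaks of 1 list). The widest end was longer in the labelled list, where 150 peaks exceeded 5 kb against 30 control peaks. The widest control peaks lay on the nuclear noncoding RNA Neat1 (23860 bp), on Plin4, a lipid droplet protein (12145 bp), and on the noncoding RNA Malat1 (11422 bp). All 3 were shared.

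**Figure D2:**
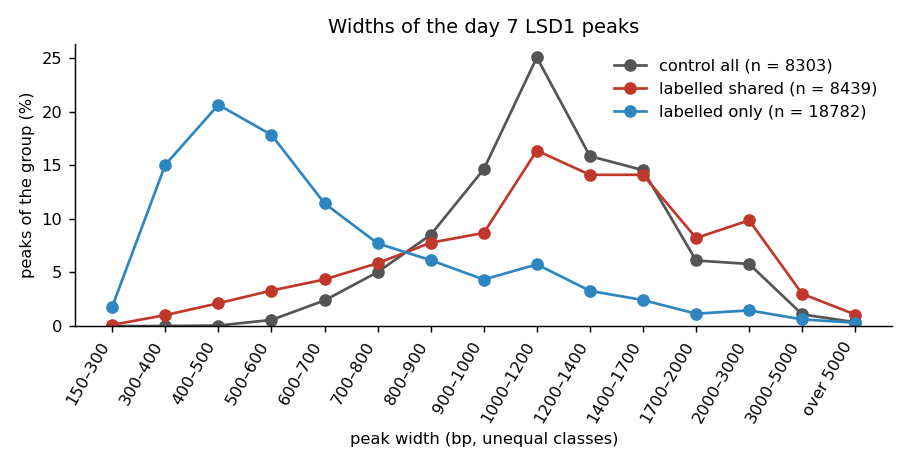
Share of peaks (%) in classes of peak width (bp, classes of unequal size) for all control peaks (grey), shared labelled peaks (red) and labelled-only peaks (blue). The labelled-only peaks centre below 600 bp, with a median of 565 bp, and the other sets above 1 kb.

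Genomic class separated the sets. A peak counted as promoter when it reached within 1 kb of a transcription start, and otherwise as exon, intron or intergenic by its midpoint. Promoters took 7303 control peaks (88.0%, interval 87.2 to 88.6%) and 11916 labelled peaks (43.8%, 43.2 to 44.4%). The labelled-only peaks were 23.4% promoter, 39.7% intron, 31.0% intergenic and 5.94% exon, and the shared labelled peaks were 89.1% promoter. Of the control promoter peaks 99.0% were shared, and of the labelled intron peaks 5.12%. Labelled-only peaks outside promoters had a median distance of 12878 bp to the nearest start, against 8016 bp for shared ones. The 221 control-only peaks were 33.5% promoter and 37.6% intron. The highest promoter peaks of the labelled list, at 3233, lay on Grcc10 and on Eef1a1, a translation elongation factor, and both were shared, with control scores of 349 and 850.

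Base composition differed with sharing and with class. Windows of 300 bases at the midpoints held 64.8% G or C in the control list, 64.5% in shared and 52.6% in labelled-only peaks, against 41.7% in 132381 windows spaced every 20 kb over the genome and 53.8% in 32841 RefSeq promoters of the same length, from 250 bases before to 50 after the start. At promoters shared labelled windows held 65.6% G or C and labelled-only ones 59.9%, and outside promoters 55.6 and 50.3%. In the genome's lower-case repeat mask, 9.64% of labelled-only windows and 1.20% of shared ones were mostly repeat, against 29.5% of genome windows.

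In these windows 15 short motifs were counted on both strands. They were the Nrf1 core GCATGCGC, the cyclic AMP element TGACGTCA, CCGGAAG for ETS factors, CCAAT for NFY, GGGCGG for SP1 and TGANTCA for AP-1. For C/EBP factors TTGCGCAA or TTGCACAA was searched, and CACGTG for E-box factors. The others were TTTCNNTTT for interferon-regulated factors, AGATAA for GATA factors, CCNNNAGGG for CTCF, AGGTCA for PPAR and other nuclear receptors, TGTGGT for RUNX, GGAATG for TEAD and AGCACC for REST. The CTCF pattern can hold the NFY or the ETS motif whole, and matches of different motifs could share bases. The SP1 motif stood in 60.7% (59.7 to 61.7%) of shared labelled windows and in 16.9% (16.4 to 17.5%) of labelled-only windows, against 35.7% of all promoters and 2.86% of genome windows. The Nrf1 core stood in 3.82% of shared and 1.18% of labelled-only windows, against 2.71% of promoters and 0.332% of the genome. AP-1 and C/EBP motifs were more frequent outside promoters than at them, and so were others. In labelled-only windows the RUNX motif stood in 22.3% outside promoters and in 14.0% at them. Outside promoters the AP-1 motif stood in 15.7% (15.1 to 16.3%) of labelled-only windows and in 15.0% (12.8 to 17.5%) of shared labelled ones, so that the intervals overlapped, and in 14.5% (10.1 to 19.8%) of all control-only windows. The shares were 8.94% for genome windows and 7.81% for promoters. The C/EBP motif stood in 2.85% (2.58 to 3.14%) of labelled-only and in 13 of 920 (0.754 to 2.40%) shared labelled windows outside promoters, against 0.958% of genome windows and 1.19% of promoters. Leaving out densely listed stretches too, 10060 labelled-only windows stayed, with AP-1 in 17.8% (17.0 to 18.5%) and C/EBP in 3.42% (3.07 to 3.79%). Among those 10060, the C/EBP share was 3.89% (3.49 to 4.34%) where the labelled day 0 list had no peak and 27 of 1920 (0.929 to 2.04%) where it had one. For AP-1 the same shares were 18.3% (17.4 to 19.1%) and 15.6% (14.0 to 17.3%). Other motifs differed from the genome windows too. Labelled-only windows outside promoters held the CTCF pattern in 18.9%, against 10.2% of genome windows, and the REST motif in 18.5%, against 12.8%. Of the 15 motifs only GATA (11.0 and 19.1%), the interferon pattern (9.70 and 18.0%) and NFY (31.1 and 40.9%) were less frequent there. GC content differed between these sets, and its part in the motif shares was not tested.

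Shared peaks were largely listed before induction in the labelled cells, but mostly not in the control cells. The labelled day 0 list, of 13997 peaks, overlapped 89.3% of shared labelled peaks and 28.3% of labelled-only ones. Labelled-only promoter peaks were listed at day 0 in 57.3% of cases and those outside promoters in 19.4%. The control day 0 list, of 3024 peaks, overlapped 31.1% of shared and 2.39% of labelled-only peaks. Of the 1629 Nrf1 peaks at day 7, 98.2% (97.5 to 98.8%) lay under labelled LSD1 peaks and 80.1% (78.1 to 82.0%) under control ones. That Nrf1 sample's title speaks of LSD1 cells while its genotype label reads Control, so the cells it came from are not settled by the labels. From the other side, 15.8% of shared and 1.67% of labelled-only peaks overlapped an Nrf1 day 7 peak.

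Many labelled-only peaks were crowded. Bins of 100 kb with 10 or more peaks numbered 419 in the labelled list, with 6079 peaks (22.3%), and 5 in the control list, with 53 peaks. The most crowded run lay at chr8:20100001-20700000, with 167 labelled peaks over 281 kb around Gm15319 and Gm21119 and no control peak. The labelled day 0 list held 2 peaks there. A run at chr5:15400001-15700000 around Gm21149, Gm21083 and Speer4d held 96 labelled peaks, and one at chr1:85400001-85700000 over Sp140, Sp110 and Sp100, nuclear body genes, held 66. Neither held a control peak. Other crowded bins lay on single large genes: Hacd2, an enzyme of fatty acid elongation, carried 52 labelled peaks and 1 control peak, and Col6a3, a collagen VI chain, 49 and 2. Without the peaks of the dense bins 49.2% of labelled peaks lay at promoters and 34.7% were shared.

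Of 21911 protein-coding genes, 7821 carried a promoter peak in both lists, 2978 in the labelled list only, 50 in the control list only and 11062 in neither. Thus 99.4% of the control promoter genes were labelled promoter genes, and 72.4% of the labelled ones were control ones. These counts depend on the peaks kept. With a score of at least 100 in both lists, 4865 genes were labelled only and 26 control only, and with the top 8303 labelled peaks 1001 were labelled only and 1175 control only. Taking labelled peaks out of the densely listed stretches left 907 genes control only, which follows in part from keeping the 1048 control peaks there. Peaks in the gene body, outside the promoter, were on 3865 genes in the labelled list (17.6%) and on 463 in the control list (2.11%), with 413 in both. Promoter peaks were more frequent on genes with more RNA. Among the tested genes of the lowest quintile of RNA level 17.0% had a control and 34.9% a labelled promoter peak, each by its own libraries' level, and in the highest quintile 81.9 and 97.7%.

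**Figure D3:**
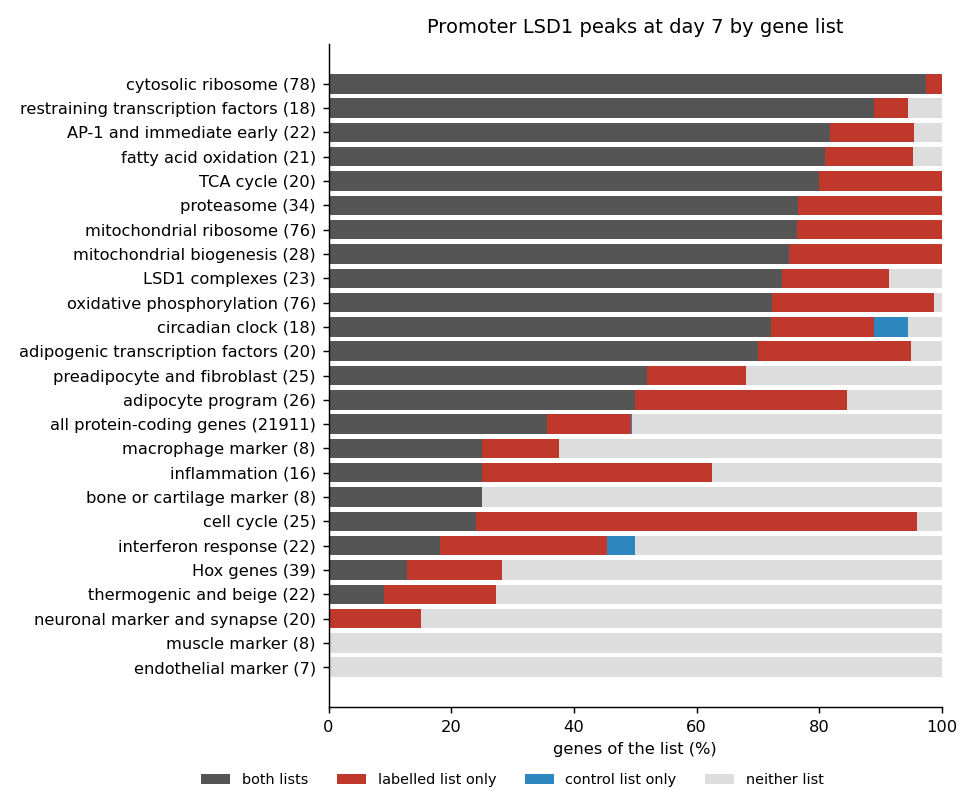
Share of the genes of each list (%, number of genes in brackets) with a promoter peak in both day 7 lists (dark grey), in the labelled list only (red), in the control list only (blue) or in neither (light grey). Cytosolic ribosome genes are nearly all in both, 18 of 25 cell cycle genes are in the labelled list only, and endothelial and muscle markers are in neither.

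Adipocyte genes carried some of the strongest and widest labelled peaks. Of 26 genes of the adipocyte program 13 had a promoter peak in both lists, 9 in the labelled list only and 4 in neither. Of all protein-coding genes tested for RNA, 60.5% were in both lists, 21.6% in the labelled list only and 17.5% in neither. A labelled promoter peak was on 84.6% of the adipocyte genes, near the 82.1% of all those tested. The median promoter score of the adipocyte genes was 3100 in the labelled list, against 631 over all protein-coding genes with such a peak. Labelled peaks covered 50% or more of the gene in 14 of the 26, beside 541 of all 21911 protein-coding genes. Control peaks did so in 4 of the 26, beside 226 of all. RNA was tested for 25, of which 23 were higher and 1 lower in the labelled libraries, with a median log2 difference of 1.63, against -0.03 over all protein-coding genes tested, of which 64.3% passed, 31.1% higher and 33.2% lower. The list names genes that the induction is known to raise, and the members were not chosen without knowledge of these data.

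Cidec lies at chr6:113424634-113435760 on the minus strand and had no control peak. In the labelled list 3 peaks covered 97.9% of it, the promoter peak at 3100. Its RNA stood at 621, 571 and 600 CPM in the control libraries and at 3685, 3965 and 4574 CPM in the labelled ones. All labelled libraries were above all control ones, by log2 2.77 ± 0.40 (adjusted p = 4.9e-05). Plin1, the coat protein of lipid droplets, also lacked a control peak, and 4 labelled peaks covered 92.7% of it. Its RNA went from 273, 232 and 246 CPM to 917, 976 and 1085 CPM, without overlap (log2 1.99 ± 0.22, adjusted p = 5.7e-06). Gpd1, which makes glycerol phosphate for triglycerides, had 1 labelled peak at 3100 over the whole gene and 1 control peak that did not reach the promoter. Its RNA was 498 ± 24 CPM in the controls and 2759 ± 221 CPM in the labelled libraries (SD, n = 3 each). G0s2, an inhibitor of lipolysis, was covered whole by a labelled-only peak of 2443, and Slc2a4, the insulin-responsive glucose transporter, had a labelled-only promoter peak of 729 with RNA at 35.4 ± 1.9 and 301 ± 35 CPM. Cd36, a fatty acid transporter, carried 31 labelled peaks and no control peak.

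Other adipocyte genes were in both lists, with more of the gene covered in the labelled one. Lpl, the lipase of circulating triglycerides, had a control promoter peak of 892 and a labelled one of 3100, with 40.2 and 97.7% of the gene covered. Its RNA was 4792, 4441 and 4352 CPM in the controls and 10025, 8558 and 8061 CPM in the labelled libraries, which did not overlap (log2 0.97 ± 0.13, adjusted p = 3.3e-05). Fabp4, a fatty acid carrier, was covered whole in both lists, with 4350 ± 870 and 13752 ± 2528 CPM. For Agpat2, an enzyme of phosphatidic acid synthesis, labelled peaks covered the whole gene and control peaks 11.1% of it, and for Pnpla2, the triglyceride lipase, the whole gene and 52.1%. Plin4 was at 3100 and covered whole in both lists. Among the transcription factors, Pparg had promoter scores of 77.3 and 1086 and 5 labelled peaks against 1 control peak. Its RNA was 139, 133 and 127 CPM in the controls and 337, 338 and 350 CPM in the labelled libraries (log2 1.36 ± 0.13, adjusted p = 1.7e-06). Cebpa had promoter scores of 123 and 3129 with RNA at 96.6 ± 9.7 and 219 ± 30 CPM, and Cebpb, which acts early in adipogenesis, 1533 and 3100 with 135 ± 31 and 376 ± 37 CPM.

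**Figure D4:**
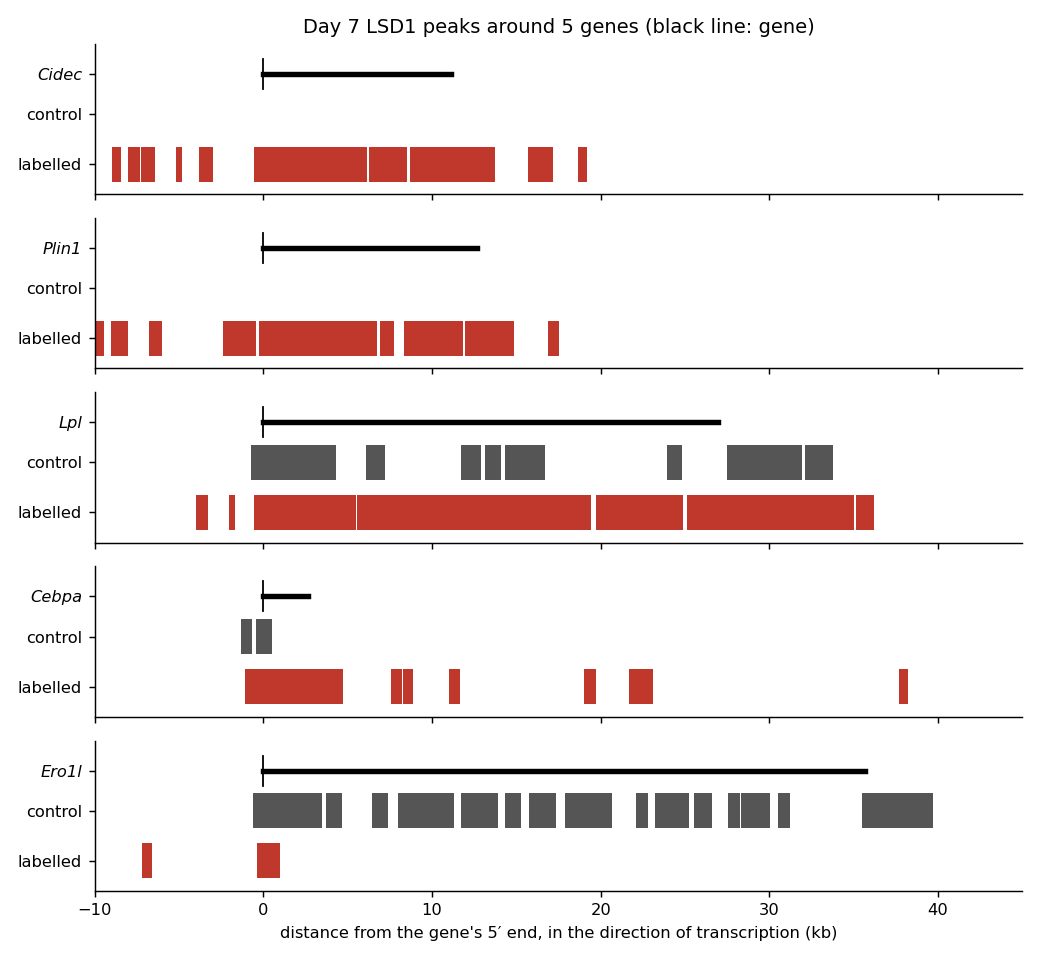
Day 7 LSD1 peaks of the control list (grey) and the labelled list (red) around Cidec, Plin1, Lpl, Cebpa and Ero1l, drawn to scale against the distance (kb) from the gene's 5′ end in the direction of transcription, with the gene as a black line. Cidec and Plin1 hold labelled peaks only, and Ero1l holds 16 control peaks within the stretch that holds 1 labelled peak.

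The exceptions in the adipocyte list were few. Aqp7, a glycerol channel, Cfd, the secreted factor adipsin, and Pck1 had no peak in either list, and Lep had a labelled peak outside the promoter. Adipoq, the hormone adiponectin, had a weak labelled-only promoter peak of 92.1, and its RNA did not pass the test (468 ± 14 and 680 ± 58 CPM, adjusted p = 0.107), but did when only the 6 day 7 libraries were fitted (adjusted p = 5.9e-05). Retn, the hormone resistin, had a labelled-only promoter peak of 157 and was the 1 member with lower RNA, 67.5 ± 4.1 and 24.7 ± 3.6 CPM (adjusted p = 0.00388, and 0.340 by DESeq2). Thermogenic genes were mostly without peaks. Of 22 such genes 2 had a promoter peak in both lists (Gk and Ppargc1a), 4 in the labelled list only and 16 in neither, where 50.5% of all protein-coding genes were. Of 14 tested, 9 were higher and 1 lower in RNA, beside 31.1 and 33.2% of all protein-coding genes tested. Ucp1 and Prdm16 had no peak in either list, and their RNA was at or near 0 in all 6 libraries. Cidea had a single labelled intron peak of 67.8.

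Most genes of the mitochondrial lists carried a promoter peak in both peak lists. Promoter peaks were in both lists for 55 of 76 oxidative phosphorylation genes, in the labelled list only for 20 and in neither for 1. The counts were 16 and 4 of 20 for the TCA cycle, 17 and 3 of 21 for fatty acid oxidation, 58 and 18 of 76 for the mitochondrial ribosome, and 21 and 7 of 28 for mitochondrial biogenesis. The shares in both lists were 72.4 to 81.0%, beside 60.5% of all protein-coding genes tested for RNA, of which 82.1% had a labelled promoter peak. This comparison does not take RNA level into account. In the fourth and the highest quintile of control RNA level, 1931 of 2487 and 2033 of 2488 tested genes were in both lists. RNA was higher in the labelled libraries for 74 of 76, 19 of 20, 20 of 21, 67 of 76 and 17 of 28 of these genes, beside 31.1% of all protein-coding genes tested. Acadm had promoter scores of 53.0 and 2490, with RNA at 392 ± 24 and 1395 ± 144 CPM. Cs, citrate synthase, had 82.0 and 1436, with 592 ± 22 and 2118 ± 48 CPM. Cpt1a, the liver form of carnitine palmitoyltransferase, went the other way, at 67.5 ± 3.2 and 48.9 ± 2.7 CPM, with peaks in both lists. Of the genes that build mitochondria, Ppargc1a, a coactivator, had scores of 335 and 645 and its RNA did not pass (adjusted p = 0.255), nor did that of Nrf1 (315 and 1709, adjusted p = 0.116). Both passed in the fit of the 6 day 7 libraries alone, at adjusted p = 0.0271 and 0.0427. Esrra, a nuclear receptor that works with the coactivator, had a labelled-only promoter peak of 1594 with RNA at 32.2 ± 5.4 and 160 ± 13 CPM.

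Ribosome and proteasome genes also carried promoter peaks. Of 78 cytosolic ribosome genes 76 had a promoter peak in both lists and 2 in the labelled list only, with median scores of 340 and 1548, where 60.5% of all tested protein-coding genes were in both and 21.6% in the labelled list only. RNA was higher for 11, lower for 9 and did not pass for 58, beside 31.1% higher and 33.2% lower over all of them. Of 34 proteasome genes 26 were in both lists and 8 in the labelled list only, and RNA was higher for 17 and lower for none, at a median log2 difference of 0.35.

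Cell cycle genes formed the list with the largest labelled-only share. Of 25 genes 6 had a promoter peak in both lists, 18 in the labelled list only (72.0%, beside 21.6% of all tested protein-coding genes) and 1 in neither. The median labelled promoter score was 247, against 631 over all genes. Their RNA was lower in the labelled libraries for 18 and higher for 2, beside 33.2 and 31.1% of all tested. Mki67, the proliferation marker, had a labelled-only peak of 133, and its RNA stood at 184, 144 and 149 CPM in the controls and 2.70, 2.63 and 1.71 CPM in the labelled libraries, far apart (log2 -6.08 ± 0.43, adjusted p = 9.1e-08). Top2a, the mitotic topoisomerase, had a labelled-only peak of 117 with 113 ± 5 and 4.92 ± 0.47 CPM, and Ccnd1, cyclin D1, one of 142 with 197 ± 7 and 8.65 ± 1.28 CPM. A labelled-only promoter peak thus stood on genes with much less RNA in those cells as well as on genes with more.

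Interferon and fibroblast genes were mostly lower in RNA. Of 22 interferon response genes 4 had a promoter peak in both lists, 6 in the labelled list only, 1 in the control list only and 11 in neither, and 18 were lower and 1 higher, beside 33.2 and 31.1% of all protein-coding genes tested. Of those genes 60.5% had a promoter peak in both lists and 17.5% in neither. The control-only gene was Irf9, a subunit of the interferon-activated factor, with a peak of 59.9 and RNA at 34.8, 37.2 and 37.8 CPM in the controls and 5.96, 7.64 and 6.11 CPM in the labelled libraries (log2 -2.48 ± 0.17, adjusted p = 8.5e-08). Of 25 preadipocyte and fibroblast genes 13 were in both lists, 4 in the labelled list only and 8 in neither, with 22 lower and 1 higher. Col1a1, a chain of collagen I, had promoter scores of 378 and 886 with RNA at 3027 ± 65 and 164 ± 16 CPM. Dlk1, the preadipocyte inhibitor of adipogenesis, had no peak in either list, with RNA at 1108 ± 136 and 14.8 ± 5.5 CPM.

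Genes of LSD1's own complexes were in both lists for 17 of 23, in the labelled list only for 4 and in neither for 2, Gfi1 and Gfi1b. RNA was higher for 7 and lower for 9 of the 21 tested, near the 31.1 and 33.2% of all protein-coding genes tested, of which 60.5% were in both lists. Rcor1, the CoREST scaffold, had scores of 230 and 1331, and its RNA did not pass (adjusted p = 0.728). Hdac1, a deacetylase partner, had 125 and 403, with 23.7 ± 0.7 and 15.3 ± 0.8 CPM. Transcription factors that restrain adipogenesis were in both lists for 16 of 18, and 4 were higher and 8 lower in RNA. Clock genes were in both lists for 13 of 18, with 10 higher and none lower. Immediate early genes were in both lists for 18 of 22, with 6 higher and 8 lower of 21 tested, also near the share over all genes. Jund, an AP-1 subunit, was covered whole in both lists, at 1627 and 3100, with RNA at 76.0 ± 7.0 and 343 ± 70 CPM. Of 39 Hox genes 28 had no promoter peak, and of 20 neuronal genes 17, beside 50.5% of all protein-coding genes.

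Labelled peaks that filled a gene went with high RNA in both groups. Of 17779 protein-coding genes of 5 kb or longer, labelled peaks covered 50% or more of 142 and control peaks of 19, and 15 of those 19 were among the 142. The median RNA level of the tested ones among the 142 was 141 CPM in the controls and 215 CPM in the labelled libraries, against 32.3 and 30.7 CPM over all genes of that length. Of 133 tested 63.9% were higher and 12.8% lower, with a median log2 difference of 0.70, against 30.2 and 34.3% and -0.06 for all genes of that length. The 19 genes covered by control peaks went the same way, with 13 higher, 0 lower and a median log2 difference of 0.84. Their median level was 571 CPM in the controls and 1387 CPM in the labelled libraries. Aldoa, aldolase A of glycolysis, was covered to 73.0% by control peaks and whole by labelled ones, with 2442 ± 33 and 9133 ± 1059 CPM. Scd1, the stearoyl-CoA desaturase, was covered to 5.92 and 90.2%, with 808 ± 47 and 3924 ± 140 CPM. Coverage also occurred with lower RNA: Col6a3 was covered to 50.9% by 49 labelled peaks and had 4708 ± 614 CPM in the controls and 2232 ± 194 CPM in the labelled libraries.

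RNA differences were related to the promoter class. Of 7527 tested genes with a promoter peak in both lists, 36.2% were higher and 26.3% lower in the labelled libraries, beside 31.1 and 33.2% of all 12437 protein-coding genes tested. Of 2683 with a labelled-only promoter peak 29.0% were higher and 38.5% lower, and of 2180 with none 347 (15.9%) were higher and 1090 lower. The median log2 differences were 0.12, -0.12 and -1.22. The labelled-only class did not keep this direction: with the top 8303 labelled peaks it was 37.7% higher and 25.3% lower, and with a score of at least 100 it was 32.9 and 32.6%. Genes without a promoter peak had less RNA, with a median of 1.49 CPM in control libraries against 46.5 CPM for genes in both lists. Within quintiles of control RNA level the direction turned in places. In the top quintile 37.3% were higher and 29.2% lower for both, 30.7 and 40.2% for labelled only, and 11.0 and 83.6% for the 73 genes in neither. In the fourth quintile from the bottom 181 of 476 labelled-only genes were higher and 165 lower, and in the lowest quintile genes in both lists were 23.7% higher and 25.1% lower. Of all protein-coding genes 9474 did not pass the filter on low counts, 8882 of them without a promoter peak.

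**Figure D5:**
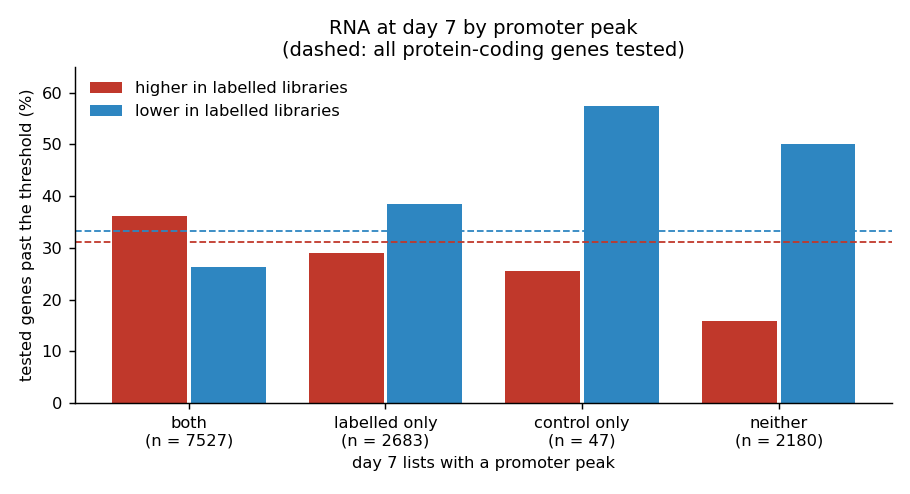
Share of tested protein-coding genes (%) higher (red) or lower (blue) in the labelled libraries at day 7, by the day 7 lists with a promoter peak; dashed lines give all protein-coding genes tested. Genes in both lists stand at 36.2% higher and 26.3% lower, and those in neither at 15.9% higher, with 1090 of 2180 lower.

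The largest RNA differences occurred in each class. In both lists, Chchd10, a mitochondrial intermembrane protein, rose from 0.931 ± 0.206 to 105.5 ± 5.2 CPM, and Sned1, a matrix protein, went from 233 ± 44 to 2.24 ± 0.81 CPM. With a labelled-only promoter peak, Ephx2, the soluble epoxide hydrolase, went from 9.60 ± 1.07 to 226 ± 32 CPM with a peak of 231, and Cox7a1, the muscle and heart isoform of a cytochrome oxidase subunit, from 3.03 ± 0.85 to 54.9 ± 7.1 CPM with a peak of 87.2. In the other direction Nuf2, a kinetochore protein, went from 17.2 ± 1.0 to 0.178 ± 0.088 CPM with a labelled-only peak of 280. All of these passed the test.

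The 50 genes with a promoter peak in the control list only had mostly weak peaks, and the median score of the 74 control-only promoter peaks was 65.4. Their 47 tested members were 25.5% higher and 57.4% lower in the labelled libraries, beside 31.1 and 33.2% of all protein-coding genes tested. The median log2 difference was -1.23, near the -1.22 of the 2180 tested genes with no promoter peak, of which 1090 were lower. The strongest control-only promoter peaks lay on Gtf2i, at 476, and St3gal4, a sialyltransferase, at 369. The labelled day 0 list held both. Cyp7b1, an oxysterol hydroxylase, had 68.3 ± 4.0 and 4.01 ± 0.67 CPM with a peak of 59.9, Grem1, a BMP antagonist, 41.3 ± 19.9 and 2.48 ± 0.67 CPM with one of 74.7, and Zfp57, a factor of imprinted regions, 19.2 ± 1.3 and 0.692 ± 0.219 CPM with one of 86.6. Of the 50 genes 7 were on chromosome 10.

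On chromosome 10 lay 3 of those 7, next to the widest labelled peaks. In the 417 kb at chr10:117376582-117794009, 11 labelled peaks covered 404 kb, the widest of 170714 and 122523 bp, and none of the other 5 lists held a peak there. The stretch holds Mdm2, the ubiquitin ligase of p53, and Slc35e3 and Cpm. Mdm2 RNA was 6039, 6760 and 6140 CPM in the controls and 6628, 5943 and 4300 CPM in the labelled libraries, which overlapped (adjusted p = 0.335). The highest mean of any tested protein-coding gene was 7396 CPM in the controls and 13752 CPM in the labelled libraries. Slc35e3 was also high in both, at 1467 ± 33 and 1590 ± 43 CPM (adjusted p = 0.288), and Cpm, a carboxypeptidase, had 43.0 ± 1.4 and 160 ± 12 CPM. Lyz2, lysozyme of macrophages, just before the stretch, had a labelled promoter peak of 3100 with RNA of at most 0.178 CPM in any of the 6 libraries. The 692 kb gap between labelled peaks before it, chr10:116582215-117274356, held no labelled day 7 peak, while the control day 7 list held promoter peaks at Rab3ip (116), Cct2 (125) and Yeats4 (117) and the labelled day 0 list held 5 peaks. RNA of these 3 genes was higher in the labelled libraries, for example Cct2, a chaperonin subunit, at 332 ± 17 and 463 ± 24 CPM.

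Another place also held more control than labelled peaks. Over Ero1l, an oxidase that forms disulfide bonds in the endoplasmic reticulum (chr14:45278088-45323771, the gene with 5 kb on each side), the control list held 16 peaks over 28.1 kb, up to a score of 998, and the labelled list 1 peak of 1.36 kb at the promoter, with a score of 1338. Its RNA was 265, 298 and 279 CPM in the controls and 1808, 1945 and 1661 CPM in the labelled libraries. The labelled libraries were thus higher where fewer peaks were listed (log2 2.69 ± 0.48, adjusted p = 0.000291). Acsl1, the acyl-CoA synthetase of fat cells, had a single labelled peak of 78856 bp over the whole gene with a score of only 82.9, and a control promoter peak of 183. Its RNA was 1827 ± 121 and 3000 ± 41 CPM.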

How the data were processed

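The series holds 24 samples. Of these, 12 RNA-seq libraries and 6 ChIP-seq peak lists were used, and 6 input samples were not used here. Reads were aligned to mm10 with Bowtie per the labels' protocols and Bowtie2 per the submitters' processing notes, and peaks were called with MACS 1.41, as those notes write it. Each deposited peak list gives a chromosome, start, end and a score per peak, and the authors' score scale is not given in the sources used here. Peaks were called per sample. RNA reads were aligned with TopHat2 and counted per RefSeq transcript, and the deposited counts are raw, per the submitters' processing notes, which also name HOMER, edgeR and DESeq 1.8.3.

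From the lists, peaks that share 1 base or more counted as shared. Promoters were taken within 1 kb of a start in the gene models for mm10, and 21911 protein-coding genes were used. From the counts, 1 transcript per gene was kept, the one with the highest mean, and 367 gene models were matched by an older symbol. edgeR 4.0.16 (quasi-likelihood test, TMM scaling, filterByExpr, 4 group means over 12 libraries) tested labelled minus control at day 7 with Benjamini-Hochberg adjustment at 0.05 and was tested on simulated data. The sample titles call the RNA libraries of each group biological replicates. The sources do not say whether these are separate cultures, so that p-values measure the spread between these samples. That spread was pooled over all 12 libraries, including those taken before induction. The labelled libraries from before induction correlated at 0.958 or more, and the labelled ones of day 7 at 0.992 or more. The SEs and adjusted p-values of the fit over 12 libraries therefore do not reflect the day 7 libraries alone. The number of ChIP-seq reads is unknown. Shares carry exact Clopper-Pearson intervals at 95%.

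Named genes were LSD1 and adipocyte regulators always, the peaks with the highest scores and widths, the members of each gene list with the highest promoter scores and largest RNA differences, and the genes with the largest RNA differences per promoter class among those of at least 10 CPM. Densely listed stretches, covered genes, the Mdm2 and Ero1l stretches and further list members, such as Dlk1, were named after their values were seen. The members and lists were chosen with earlier results of these data known. Alternatives were a minimum score, an equal number of peaks, other overlap and promoter rules, other scalings and filters, and leaving out each library. Work was done in Python 3.11.15 with pysam 0.24.0.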

Additional observations from a re-analysis of the deposited data

How the results depend on the processing

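With a score of at least 100, 17078 labelled and 5229 control peaks stayed, with median widths of 989 and 1321 bp. Of the control peaks 99.1% were then shared, 60.7% of labelled and 93.3% of control peaks lay at promoters, 4865 genes had a promoter peak in the labelled list only and 26 in the control list only, and 2123 and 162 genes had body peaks. Of the tested genes with promoter peaks in both lists 24.5% were lower, and of those in the labelled list only 32.9% were higher and 32.6% lower. With the top 8303 labelled peaks, the median width was 1349 bp, 77.5% of labelled and 78.8% of control peaks were shared, 84.9% lay at promoters, 1001 genes were labelled only, 1175 control only, and 527 had labelled body peaks. The higher and lower shares were then 38.4 and 23.2% for both, 37.7 and 25.3% for labelled only, so that the direction of the labelled-only class changed sides, and 19.6% were higher for neither.

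An overlap of 50% of both peaks gave 87.1% of control and 26.6% of labelled peaks as shared, and midpoints within 500 bp gave 90.4 and 27.8%. Promoters of 2.5 kb took 90.2% of control and 50.7% of labelled peaks, and midpoints within 1 kb of a start 86.1 and 41.0%, with 129 control-only genes. With an absolute log2 difference of at least 1, higher and lower shares were 13.5 and 12.2% for both, 12.9 and 25.9% for labelled only, and 13.6 and 46.3% for neither.

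The following were chosen after seeing the data. Without labelled peaks in dense bins, the median labelled width was 713 bp, 85.0% of control and 34.7% of labelled peaks were shared, 49.2% of labelled peaks lay at promoters, and 907 genes were control only; the control peaks in those bins were kept, which bears on the last and on the control share. With a score of at least 100 in all lists, 85.1% of shared and 35.5% of labelled-only peaks overlapped the labelled day 0 list, and 62.7% of Nrf1 day 7 peaks lay under control peaks.

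Over all genes 4027 were higher and 4464 lower at day 7. RLE scaling gave 4200 and 4342, no filter 3701 and 4656, the 6 day 7 libraries alone 4561 and 4787, DESeq2 4304 and 4416, and leaving out 1 library 3553 to 3747 and 4054 to 4193. Replicate numbers did not pair the day 7 libraries, with correlations of same-numbered deviations of -0.15, -0.07 and -0.05, and a replicate block gave 3834 and 4327. Among calls that a setting also tested, none passed in the opposite direction, and 16 to 943 were lost. The fit of the 6 day 7 libraries tested only 8195 of the 8491 calls. Lyz2, which did not pass, stood at log2 -0.44 and ranged from -1.34 to 1.10 when 1 library was left out. The depth of the ChIP-seq samples is unknown and limits what a missing peak can show.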
